A study of Mus musculus with 6 samples.

Results

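The thin filament is the actin-based filament of the sarcomere, and 10 of its genes were compared between the hearts of knockout and wild-type mice: *Actc1*, *Acta1*, *Tnnt2*, *Tnnt1*, *Tnni3*, *Tnni1*, *Tnnc1*, *Tpm1*, *Tpm2* and *Lmod2*. They were taken by symbol from a table of 16018 genes, and all 10 were in it. Hearts of 3 KOb/c and 3 WT females, aged 4 to 5 weeks, were sequenced, all on a C57BL/6J background and bred from heterozygous parents. KOb/c mice lack the B and C variants of the sodium bicarbonate cotransporter NBCe1, encoded by *Slc4a4*, congenitally and not in the heart alone. The labels give the tissue as heart and name no chamber. The values are normalized counts, that is, reads per gene after each library was divided by its size factor, and they are not scaled to gene length. Where 3 values are given for a group, they are those of replicates 1, 2 and 3 in that order.

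In the thin filament, actin subunits polymerise into a helix along which tropomyosin dimers lie end to end, each carrying a troponin complex. Troponin C binds the calcium that enters the cytosol with each beat, troponin I holds tropomyosin over the myosin-binding sites at rest, and troponin T ties the complex to tropomyosin. Leiomodin nucleates and lengthens the filament at its pointed end. Most of these proteins have a cardiac form and a skeletal or slow skeletal form, and the rodent heart moves from the skeletal or slow forms to the cardiac forms of actin and troponin I around birth. A return of *Acta1* in the adult ventricle is widely used as a sign of load or stress. The comparison therefore addressed which of these transcripts differed between KOb/c and WT hearts, and whether the balance between isoforms did.

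The library labelled KOb/c replicate 2 stood apart in 2 ways that bear on the values below. Its normalized count of *Slc4a4* was 944.8, against 264.0 and 268.7 in the other KOb/c libraries and between 675.1 and 822.2 in WT, so the targeted gene did not set this library apart from WT. Reads of all *Slc4a4* variants are counted together, so the variants are not separated. The paper describes NBCe1-B as the only variant expressed in the heart. The genotype of this library was not tested. The same library had the highest sum of skeletal muscle markers, 8670 normalized counts over the 12 of 14 listed genes that were in the table, against 1641 to 2468 in the other KOb/c libraries and 2311 to 4313 in WT. *Myh4* and *Myod1*, which define fast fibres and the myogenic lineage, were not in the table. Cardiomyocyte markers summed to between 2982690 and 3441844 in KOb/c and between 2511405 and 2657628 in WT, so the tissue carried its label in all 6 libraries. Atrial markers ranged from 19122 to 96166 in KOb/c and from 29464 to 122291 in WT, and were lowest in KOb/c replicate 1 and WT replicate 1. Results are given with the library labelled KOb/c replicate 2 and, where it bears on them, without it.

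None of the 10 genes passed an adjusted p of 0.05 by limma, where 0 of 16016 genes tested did (0.0%) and 3764 had an unadjusted p under 0.05. At this unadjusted level, 2 were higher in KOb/c (*Acta1* and *Lmod2*), beside 13.0% of all genes, and 0 were lower, beside 10.5% of all genes. After rescaling the libraries to the same total, 1259 of all genes were higher and 2539 lower at that level, in place of 2083 and 1681, and of the 10 genes *Acta1* was higher and *Tnni3*, *Tnnc1* and *Tpm1* were lower. The edgeR test gave 0 adjusted calls as well (3837 unadjusted), whereas DESeq2, whose Wald test was run on recovered reads, passed 1587 genes, or 13.2% of those with an adjusted p-value, and 0 of the 9 thin filament genes that had one. The median log2 fold change of the 10 genes was -0.08, beside -0.004 for all genes. The normalized counts of the 3 KOb/c libraries lay wholly below those of the 3 WT libraries for *Tnni3*, *Tnnc1* and *Tpm1*, where 14.6% of all genes did so, and wholly above for 0 of the 10 genes, where 15.6% did. In bulk tissue, fewer cells of a type and less RNA per cell cannot be told apart.

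**Figure D1:**
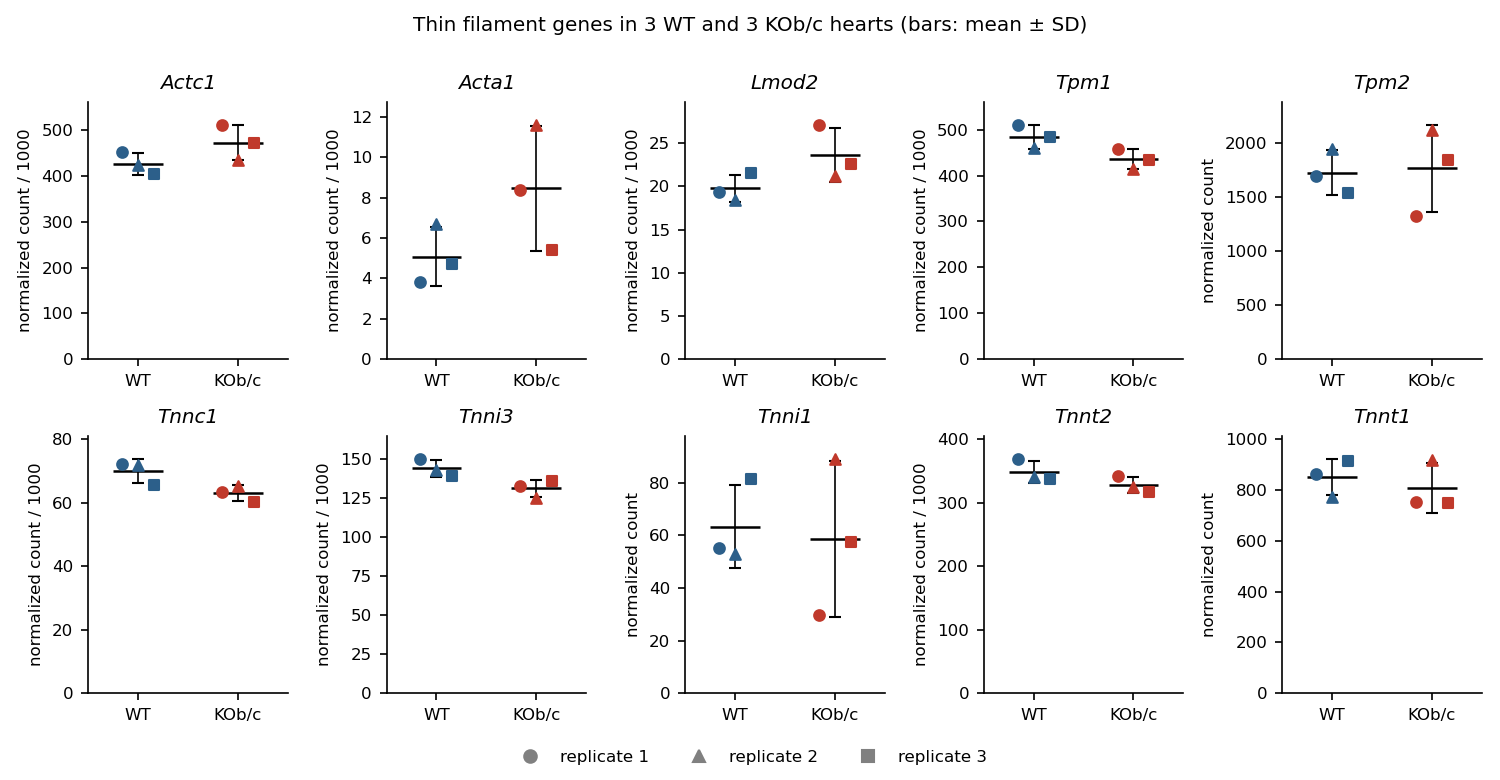
Normalized counts (y axes, from 0, divided by 1000 where the axis says so) of the 10 thin filament genes in WT (blue) and KOb/c hearts (red). Each point is 1 library, with its replicate number as the marker, and bars give the mean ± SD; the 3 KOb/c points lie below the 3 WT points for *Tpm1*, *Tnnc1* and *Tnni3*, and the widest spread relative to the mean is that of *Tnni1* and *Acta1* in KOb/c.

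Levels between genes were compared per kilobase of the longest protein-coding transcript, as normalized counts per kilobase. In WT hearts, *Tnnt2* (290349 ± 14300, SD, n = 3) and *Actc1* (289904 ± 16155) were highest and overlapped each other. *Tpm1* (167516 ± 8809) and *Tnni3* (158029 ± 6097) came next and also overlapped, followed by *Tnnc1* (97049 ± 5281). *Lmod2* stood at 10012 ± 796.8 and *Acta1* at 3509 ± 1017. *Tnnt1* (801.8 ± 66.8) and *Tpm2* (795.3 ± 94.4) could not be ordered, and *Tnni1* was lowest, at 55.0 ± 13.7. The cardiac forms thus led the slow and skeletal forms by a wide margin in every library. In KOb/c hearts, *Actc1* stood at 321409 ± 25991 and *Tnnt2* at 272695 ± 10569 per kilobase, and their libraries did not overlap. The 10 genes together took between 3.18% and 3.33% of all normalized counts in KOb/c and between 3.4% and 3.67% in WT libraries. Their summed normalized counts overlapped, from 1400029 to 1544699 in KOb/c and from 1458661 to 1578432 in WT. The totals over all genes ran from 43545220.3 to 48071816.5 in KOb/c and from 42653254.6 to 43148575.4 in WT.

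*Actc1* (ENSMUSG00000068614; chromosome 2 of GRCm38, 114047282 to 114053548, minus strand) encodes cardiac alpha-actin, the main actin of the adult heart. *Acta1* (ENSMUSG00000031972; chromosome 8, 123891769 to 123894751, minus strand) encodes skeletal alpha-actin. Of the 10 genes, these were the only ones with a CArG box, the site bound by serum response factor, in the 250 bases before a RefSeq start, a window that 12 RefSeq starts gave for the 10 genes. Among 32851 windows of that size in the RefSeq table (GRCm38.p6), 482 held one on either strand, or 1.47%. The sequences before both starts are shown because this box is the element the sarcomeric actin genes share. They run on the minus strand, 5′ to 3′, with the CArG box in capitals, over chr8:123894776-123894895 for *Acta1* and over chr2:114052888-114052995 for *Actc1*, whose last 12 bases before the start are left out as an annotated exon.
Acta1: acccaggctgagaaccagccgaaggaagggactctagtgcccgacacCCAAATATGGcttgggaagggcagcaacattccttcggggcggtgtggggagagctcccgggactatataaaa
Actc1: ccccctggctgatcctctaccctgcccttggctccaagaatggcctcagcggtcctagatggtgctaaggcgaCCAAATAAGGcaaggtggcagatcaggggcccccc
The box began 73 bases before the start of *Acta1* and 47 bases before that of *Actc1*. The *Acta1* stretch also held CATTCC, the core of the M-CAT element bound by TEAD factors, and TATAAA close to the start. Searched on both strands, CATTCC was present in 12.6% and TATAAA in 12.4% of all windows, and neither overlapped the box. *Tnnt2* held CATTCC, and *Tpm1* and *Tnnc1* held it on the opposite strand. These are matches of letters, not measured binding.

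The normalized count of *Actc1* was 511729, 435159 and 473419 in KOb/c and 452069, 424304 and 404712 in WT. The groups overlapped in the library labelled KOb/c replicate 2, which lay below WT replicate 1, while the other KOb/c libraries lay above all WT libraries. The log2 fold change was 0.15 (95% confidence interval -0.17 to 0.46, adjusted p = 0.562 by limma), and 0.21 without the library labelled KOb/c replicate 2. Cardiac actin alone made up close to 1% of all normalized counts, from 0.949% to 1.09% across the 6 libraries.

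*Acta1* had the largest log2 fold change of the 10 genes. It counted 8384, 11603 and 5420 in KOb/c and 3822, 6693 and 4708 normalized counts in WT. KOb/c replicate 1 and the library labelled KOb/c replicate 2 lay above every WT library, and KOb/c replicate 3 lay below WT replicate 2. The KOb/c mean was 66.9% above the WT mean, with a log2 fold change of 0.71 (standard error 0.27, 95% confidence interval 0.09 to 1.33, unadjusted p = 0.0301, adjusted p = 0.168 by limma). The exact permutation p, two-sided, was 0.2, and groups of 3 cannot give one below 0.1. Leaving out single libraries moved the log2 fold change to between 0.45, without the library labelled KOb/c replicate 2 (unadjusted p = 0.104 by limma), and 1.00, without KOb/c replicate 3. It was 0.87 once the dependence on transcript length and GC content had been removed (called the length and GC correction from here on). The actin genes have closely similar coding sequences, and how reads that match both were counted is not given in the sources used here.

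As a share of *Actc1*, the counts of *Acta1* were 1.64%, 2.67% and 1.14% in KOb/c and 0.845%, 1.58% and 1.16% in WT. KOb/c replicate 3 thus lay within the WT range, and the library labelled KOb/c replicate 2 was highest. The means were 1.82 ± 0.776% and 1.2 ± 0.367% (SD, n = 3 per group, exact two-sided permutation p = 0.3 and 0.6 after Benjamini-Hochberg adjustment over 10 ratios). The log2 difference of the ratio was 0.56, and 0.24 without the library labelled KOb/c replicate 2. Counting error was small beside the spread between mice, with 95% Wilson intervals of the *Acta1* share of both actins of 0.812% to 0.866% in WT replicate 1 and 2.55% to 2.64% in the library labelled KOb/c replicate 2. Such intervals cover counting error only.

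*Lmod2* (ENSMUSG00000029683; chromosome 6, 24597762 to 24605414, plus strand) encodes leiomodin-2, the cardiac actin nucleator that sets filament length at the pointed end. Normalized counts were 27119, 21178 and 22549 in KOb/c and 19382, 18449 and 21520 in WT. The library labelled KOb/c replicate 2 lay just below WT replicate 3, and the other KOb/c libraries lay above all WT libraries. The log2 fold change was 0.25 (standard error 0.10, 95% confidence interval 0.02 to 0.48, unadjusted p = 0.0394, adjusted p = 0.190 by limma). It was 0.33 without the library labelled KOb/c replicate 2 and 0.33 with the length and GC correction. DESeq2 gave an adjusted p of 0.0835 with all libraries and 0.0446 without that library, a setting chosen after the data had been seen, and this was the only test here in which one of the 10 genes passed the adjusted threshold.

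**Figure D2:**
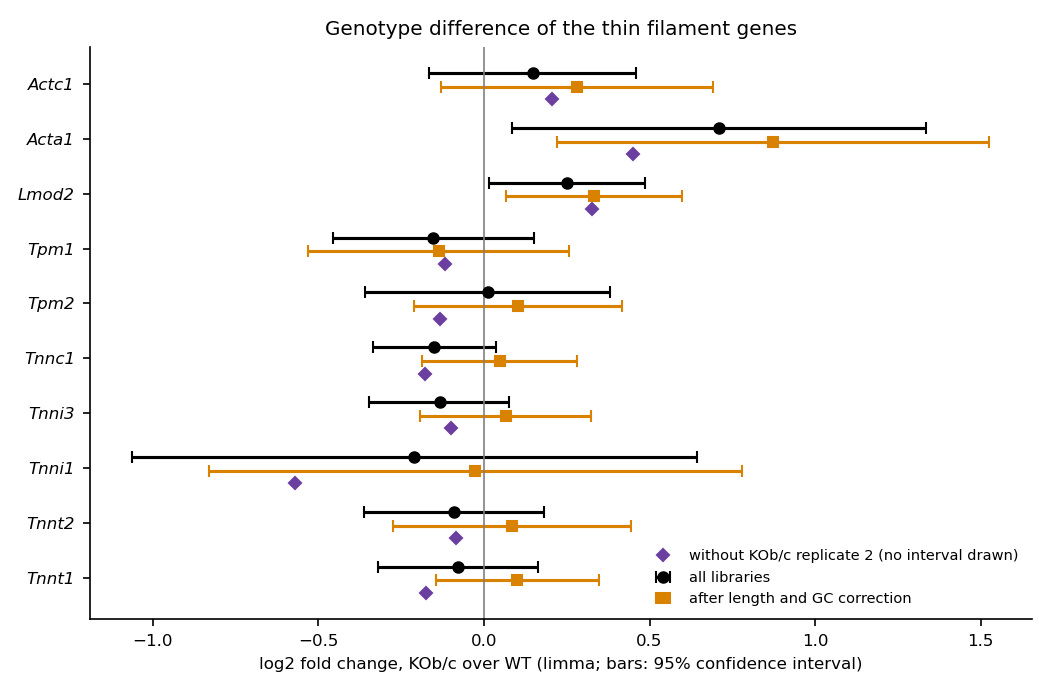
Log2 fold change of KOb/c over WT (x axis) for the 10 thin filament genes (y axis) by limma, with all libraries (black circles), with the length and GC correction (orange squares) and without the library labelled KOb/c replicate 2 (purple diamonds, no interval drawn); bars are 95% confidence intervals. Only the intervals of *Acta1* and *Lmod2* leave out 0, and the points of *Tnnc1*, *Tnni3*, *Tnnt2* and *Tnnt1* change sign with the correction.

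*Tpm1* (ENSMUSG00000032366; chromosome 9, 67022590 to 67049406, minus strand) encodes alpha-tropomyosin, the main tropomyosin of the mouse heart. Its normalized count was 457982, 414017 and 433616 in KOb/c and 510016, 459125 and 483227 in WT. Each KOb/c library lay below each WT library, the closest being KOb/c replicate 1 and WT replicate 2. The means were 435205 ± 22026 and 484122 ± 25457 (SD, n = 3), a log2 fold change of -0.15 (95% confidence interval -0.46 to 0.15, adjusted p = 0.527 by limma), and the exact permutation test gave its smallest p of 0.1. The fold change on that scale was -0.14 after the length and GC correction and -0.12 without the library labelled KOb/c replicate 2, and it was negative in all 21 alternatives tried.

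*Tpm2* (ENSMUSG00000028464; chromosome 4, 43514711 to 43523765, minus strand) encodes beta-tropomyosin, more typical of slow skeletal muscle and of the fetal heart. Normalized counts of 1330, 2122 and 1850 in KOb/c and 1701, 1948 and 1541 in WT were found, so the WT range lay inside the KOb/c range. This gave a log2 fold change of 0.01 (95% confidence interval -0.36 to 0.38, adjusted p = 0.977 by limma), and -0.13 without the library labelled KOb/c replicate 2. *Tpm2* amounted to between 0.29% and 0.513% of *Tpm1* counts in KOb/c and between 0.319% and 0.424% in WT (exact two-sided permutation p = 0.6, n = 3 per group).

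*Tnnc1* (ENSMUSG00000091898; chromosome 14, 31208312 to 31211729, plus strand) encodes the calcium-binding subunit shared by cardiac and slow skeletal muscle. It was measured at 63376, 65425 and 60326 in KOb/c and 72274, 72066 and 65578 normalized counts in WT. The groups did not overlap, but the library labelled KOb/c replicate 2 and WT replicate 3 were close. The log2 fold change was -0.15 (95% confidence interval -0.34 to 0.04, adjusted p = 0.303 by limma, exact permutation p = 0.1), and 0.05 with the length and GC correction. The gene lies wholly within *Nisch* on the opposite strand, and the strand setting of the counting is not given in the sources used here. Overlap of their exons was not examined, so whether reads of the pair were kept apart is not known.

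*Tnni3* (ENSMUSG00000035458; chromosome 7, 4518305 to 4524229, minus strand) encodes cardiac troponin I, the inhibitory subunit that protein kinase A phosphorylates in the beating heart. In normalized counts, it stood at 132930, 125037 and 136056 in KOb/c and 150064, 143261 and 139043 in WT. Each KOb/c library again lay below each WT library. This was a log2 fold change of -0.13 (95% confidence interval -0.35 to 0.08, adjusted p = 0.418 by limma, exact permutation p = 0.1), and 0.07 with the length and GC correction. *Tnni1* (ENSMUSG00000026418; chromosome 1, 135779434 to 135810989, plus strand) encodes slow skeletal troponin I, the form of the fetal heart. It reached only 29.8, 88.9 and 57.6 in KOb/c and 55.3, 53.0 and 81.5 normalized counts in WT. KOb/c replicate 1 was lowest and the library labelled KOb/c replicate 2 highest of the 6, and with 30 reads in the lowest library, counting error alone was 18.3% of the count there. This gave a log2 fold change of -0.21 (95% confidence interval -1.06 to 0.64, adjusted p = 0.778 by limma), and it ran from -0.57 without the library labelled KOb/c replicate 2 to 0.20 without KOb/c replicate 1.

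As a share of *Tnni3*, *Tnni1* counts were 0.0224%, 0.0711% and 0.0424% in KOb/c and 0.0369%, 0.037% and 0.0586% in WT. The WT range lay inside the KOb/c range, and the slow form was below 0.1% of the cardiac form in every library. The means were 0.0453 ± 0.0245% and 0.0442 ± 0.0125% (SD, n = 3, exact two-sided permutation p = 1.0). The 95% Wilson interval of the share of *Tnni1* in both ran from 0.0157% to 0.032% in KOb/c replicate 1 and from 0.0575% to 0.0877% in the library labelled KOb/c replicate 2, so these libraries differed by more than counting error.

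*Tnnt2* (ENSMUSG00000026414; chromosome 1, 135836354 to 135852260, plus strand) encodes cardiac troponin T and begins 25.4 kb beyond the end of *Tnni1*. Normalized counts were 341066, 324482 and 316154 in KOb/c and 368185, 339730 and 337340 in WT. KOb/c replicate 1 lay above WT replicates 2 and 3, so the groups overlapped. Its log2 fold change was -0.09 (95% confidence interval -0.36 to 0.18, adjusted p = 0.693 by limma), and 0.09 with the length and GC correction. *Tnnt1* (ENSMUSG00000064179; chromosome 7, 4504570 to 4516382, minus strand) encodes slow skeletal troponin T and lies 1.9 kb from *Tnni3*. It counted 753, 918 and 749 in KOb/c and 864, 772 and 912 normalized counts in WT, with the library labelled KOb/c replicate 2 highest of all. A log2 fold change of -0.08 was found (95% confidence interval -0.32 to 0.16, adjusted p = 0.703 by limma), and -0.17 without that library. *Tnnt1* counts were between 0.221% and 0.283% of *Tnnt2* counts in KOb/c and between 0.227% and 0.27% in WT (exact two-sided permutation p = 0.9, n = 3 per group).

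Ratios within a library do not depend on the size factor of that library, though quantile normalization can move them. The ratios of *Actc1* to the other abundant thin filament genes were computed after their values had been seen, so they are given as a description with their exact test. The ratio of *Actc1* to *Tpm1* counts was 1.12, 1.05 and 1.09 in KOb/c and 0.886, 0.924 and 0.838 in WT. All KOb/c libraries lay above all WT libraries, including the library labelled KOb/c replicate 2. The same held for *Actc1* to *Tnnt2* (1.45 ± 0.0911 in KOb/c, 1.23 ± 0.0247 in WT), *Actc1* to *Tnni3* (3.6 ± 0.213 and 2.96 ± 0.0509) and *Actc1* to *Tnnc1* (7.52 ± 0.765 and 6.1 ± 0.192; SD, n = 3). Each of these 4 ratios was between 1.18 and 1.23 times higher in KOb/c, with an exact two-sided p of 0.1, the smallest possible, and 0.25 after adjustment over 10 ratios. They share the *Actc1* counts, so they are not separate results. With the length and GC correction, their log2 differences were between 0.19 and 0.42, again with no overlap. Within the troponin complex, by contrast, *Tnni3* to *Tnnc1* was 2.09 ± 0.172 in KOb/c and 2.06 ± 0.0674 in WT (p = 0.9, exact), and *Tnnt2* to *Tnnc1* was 5.19 ± 0.215 and 4.98 ± 0.235 (p = 0.4, exact).

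**Figure D3:**
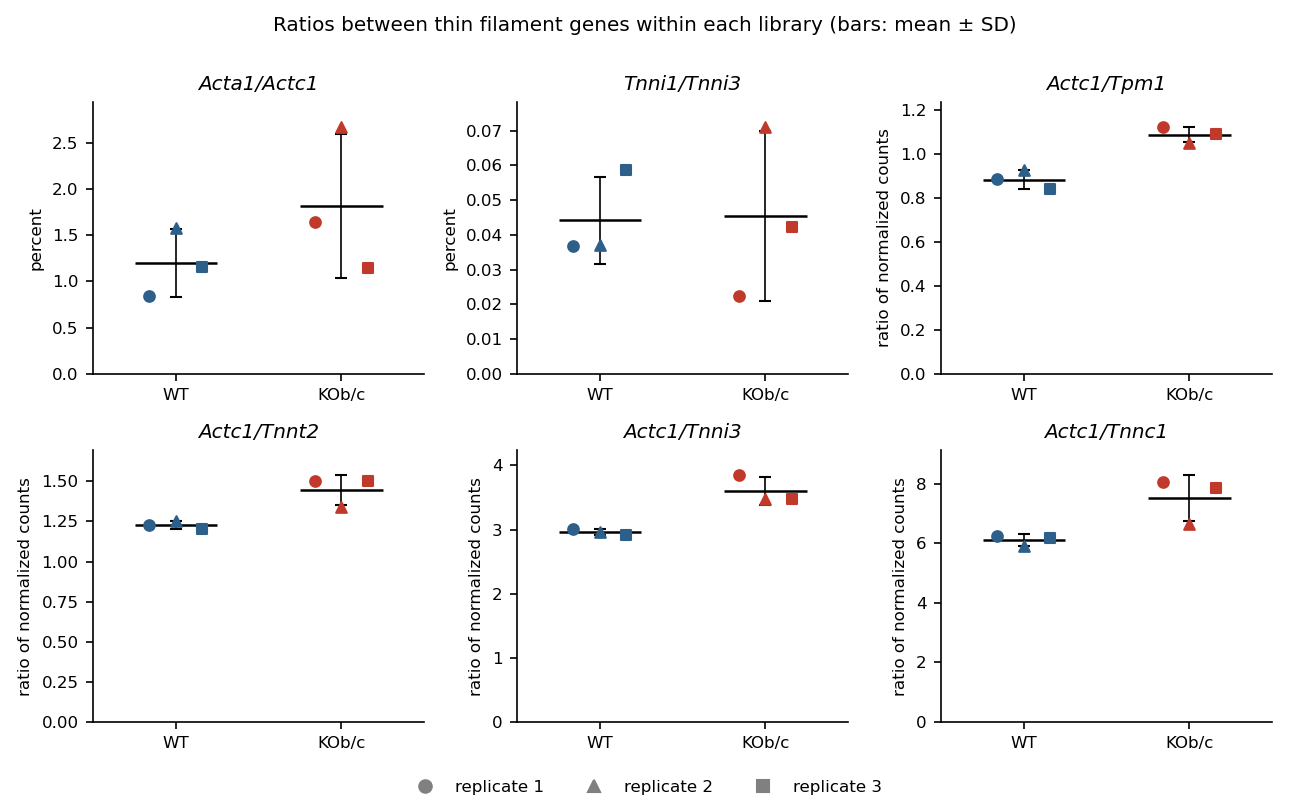
Ratios of normalized counts within each library (y axes, from 0; percent for the upper left and upper middle panels) in WT (blue) and KOb/c hearts (red), with 1 point for each library and the mean ± SD. The 3 KOb/c points lie above the 3 WT points in the 4 panels with *Actc1* as the numerator, and the groups overlap for *Acta1*/*Actc1* and *Tnni1*/*Tnni3*.

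*Acta1*, *Tnni1*, *Tnnt1* and *Tpm2* each had their highest value in the library labelled KOb/c replicate 2, and *Tnni1* and *Tpm2* had their lowest in KOb/c replicate 1. In the same way, the fast skeletal troponin T gene *Tnnt3* was at 11.9, 802.2 and 60.3 normalized counts in KOb/c and at 121.9, 65.5 and 187.7 in WT. The neonatal myosin gene *Myh8* was at 6.95, 2896 and 116.2 in KOb/c and at 294, 146.6 and 611.5 in WT. All 3 genes peaked in the library labelled KOb/c replicate 2, and in KOb/c replicate 1, where *Tnnt3* and *Myh8* were lowest of the 6 libraries, *Acta1* had its next highest value (8384). The part of the skeletal muscle genes in the *Acta1* difference was not tested.

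**Figure D4:**
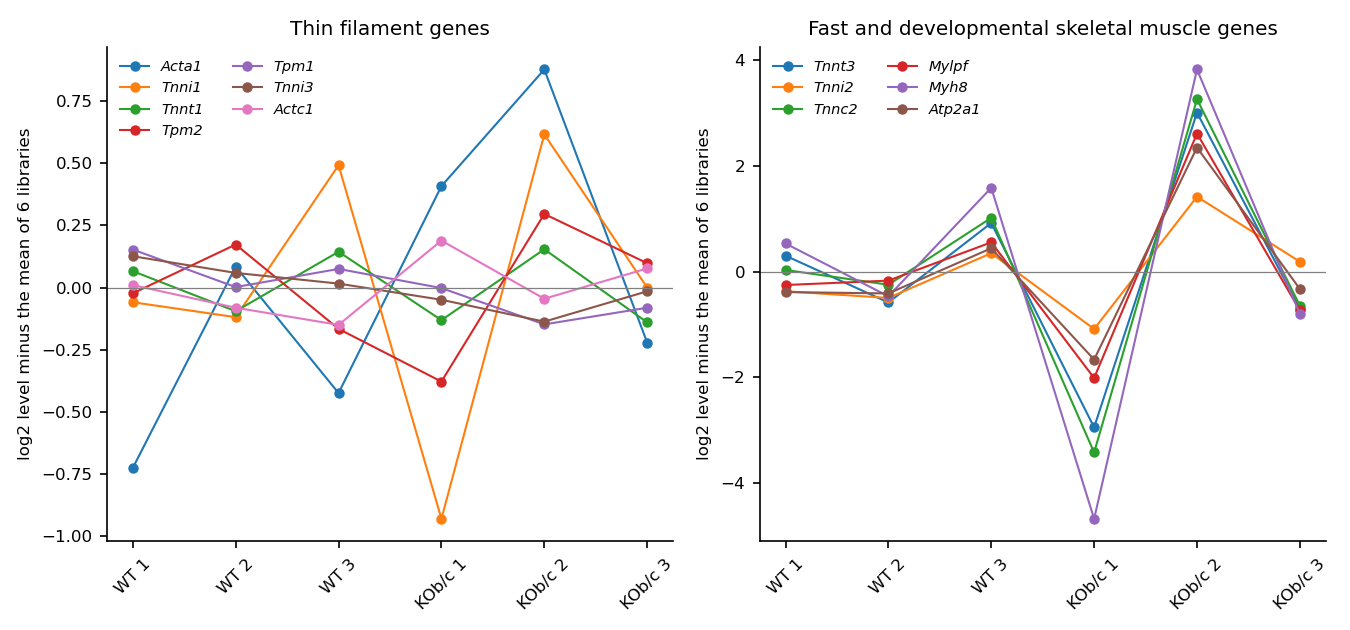
Log2 level minus the mean over the 6 libraries (y axes, on different scales) of 7 thin filament genes (left) and 6 skeletal muscle genes (right) in each WT and KOb/c library (x axes); lines only join the points of a gene. The 6 skeletal genes drawn, of the 12 in the table, peak in the library labelled KOb/c replicate 2 and are lowest in KOb/c replicate 1, where *Acta1* lies above its mean; of those not drawn, *Myh2* and *Myl1* peak in WT replicate 3 and *Cacna1s* in KOb/c replicate 1.

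The other actin, troponin and tropomyosin genes in the table were the smooth muscle, cytoplasmic, non-muscle and fast skeletal forms. Of these 9, 0 were higher and 1 was lower at an unadjusted p under 0.05, where 13.0% and 10.5% of all genes were. Without the library labelled KOb/c replicate 2, 3 were lower (8.92% of all genes), and with the length and GC correction 0 were (6.15%). Their median log2 fold change was -0.25 by limma but 0.016 by edgeR and 0.015 by DESeq2, and -0.005 by limma without KOb/c replicate 1. The lower gene was *Tpm4*, a non-muscle tropomyosin, at 5571, 6289 and 6317 normalized counts in KOb/c and 9424, 6642 and 7233 in WT. All KOb/c libraries lay below all WT libraries, with a log2 fold change of -0.34 (unadjusted p = 0.0215, adjusted p = 0.144 by limma, 0.0350 by DESeq2). With the length and GC correction it was -0.26 and passed neither level (unadjusted p = 0.0592 by limma, adjusted p = 0.192 by DESeq2). The non-muscle *Tpm3* had a log2 fold change of -0.16 and the cytoplasmic actins *Actb* and *Actg1* of 0.02 and -0.25. The smooth muscle actins *Acta2* and *Actg2* had 0.09 and -0.39. For the fast skeletal troponins *Tnnt3*, *Tnni2* and *Tnnc2*, log2 fold changes were -0.43, 0.35 and -0.53 with all libraries, and -2.04, -0.28 and -2.30 without the library labelled KOb/c replicate 2.

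Among 28 genes whose products cap, measure or assemble the thin filament, 11 were higher and 2 lower in KOb/c at an unadjusted p under 0.05, where 13.0% and 10.5% of all genes were. Their median log2 fold change was 0.14, beside -0.004 for all genes, and 0 passed an adjusted p of 0.05 by limma. DESeq2 passed 7, where 13.2% of all genes passed, and 1 with the length and GC correction, where 3.19% did. Without the library labelled KOb/c replicate 2, 11 were higher and 2 lower, where 11.9% and 8.92% of all genes were. The higher genes were not all the same: *Neb* and *Tmod2* fell short (unadjusted p = 0.0723 and 0.0542 by limma). *Tmod4* and *Tnni3k* entered in their place (unadjusted p = 0.000731 and 0.0249 by limma). With all libraries, the largest of the 11 were *Neb* (0.76), which encodes the filament ruler nebulin, *Xirp2* (0.52), an actin-binding protein of the intercalated disc, and *Tmod2* (0.44), a pointed-end cap. With the length and GC correction these fell short of the unadjusted level, with 0.48 for *Neb* (unadjusted p = 0.063 by limma), 0.28 for *Xirp2* (unadjusted p = 0.0775 by limma) and 0.21 for *Tmod2* (unadjusted p = 0.156 by limma). *Xirp2* counted 15893, 15696 and 11863 in KOb/c and 8690, 12228 and 9429 in WT, so that KOb/c replicate 3 lay just below WT replicate 2. *Neb* overlapped as well, at 411.9, 437.3 and 266.1 in KOb/c and 158.8, 193.3 and 319.7 in WT. The lower genes were *Cfl1* (-0.28), the non-muscle cofilin that severs actin, and *Cap1* (-0.19), a cyclase-associated actin-binding protein. Log2 fold changes increased with transcript length over all genes, and the median transcript length of this list was 3277 bases against 1323 for the 10 thin filament genes. With the length and GC correction, 5 of the 28 were higher and 2 were lower, where 7.2% and 6.15% of all genes were. The 5 were *Klhl41*, *Cap2*, *Tmod1*, *Xirp1* and *Smyd1*, and the 2 were *Cfl1* and *Cap1*.

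Regulators of the sarcomeric actin genes were listed as well. Of 10 genes around serum response factor and MEF2, 6 were higher and 1 was lower at an unadjusted p under 0.05, where 13.0% and 10.5% of all genes were, with a median log2 fold change of 0.23. DESeq2 passed 5 at the adjusted threshold (13.2% of all genes) and limma 0, and with the length and GC correction DESeq2 passed 0 and the limma median was 0.12. *Tead1*, which encodes the M-CAT binding factor, was at 7966, 7374 and 6416 normalized counts in KOb/c and at 4697, 5779 and 5330 in WT, with no overlap and a log2 fold change of 0.46 (adjusted p = 0.0815 by limma). *Mrtfb* and *Myocd*, which encode coactivators of serum response factor, both had 0.44 (adjusted p = 0.0844 and 0.0815 by limma). *Srf* itself had -0.21 and overlapped between the groups, at 4913, 5178 and 4073 in KOb/c and 6184, 5881 and 4440 in WT. *Hopx*, whose product restrains serum response factor, had -0.23 with all KOb/c libraries below all WT libraries. Without the library labelled KOb/c replicate 2, 6 were higher and 1 was lower, where 11.9% and 8.92% of all genes were. With that correction, 4 were higher and 0 lower by limma, beside 7.2% and 6.15% of all genes, and *Tead1*, *Mrtfb* and *Myocd* had 0.21, 0.21 and 0.31.

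The thin filament was set beside the Z-disc, to which it is anchored, the M-band and the thick filament it slides along. Of 12 Z-disc and M-band genes, 5 were higher and 0 lower at an unadjusted p under 0.05, beside 13.0% and 10.5% of all genes, with a median log2 fold change of 0.17. The 3 largest were the giant spring *Ttn* (0.47), the thin filament anchor *Actn2* (0.37) and the M-band bridge *Myom1* (0.36). Of 9 thick filament genes, 1 was higher, the motor *Myh6* (0.55), and 0 were lower, with a median of -0.18. Without the library labelled KOb/c replicate 2, 5 and 0 of the Z-disc and M-band genes and 1 and 1 of the thick filament genes were higher and lower. Of all genes, 11.9% and 8.92% were higher and lower without it. With the length and GC correction, where 7.2% and 6.15% of all genes were higher and lower, 3 Z-disc and M-band genes were higher and 0 lower, and 0 thick filament genes were higher and 1 lower, with a median of -0.009 for the thick filament. *Myh6* then had 0.41 (unadjusted p = 0.109 by limma, adjusted p = 0.000704 by DESeq2) and *Ttn* 0.33 (unadjusted p = 0.0752 by limma, adjusted p = 0.123 by DESeq2). At the adjusted threshold, limma passed 0 genes of either list. DESeq2 passed 5 Z-disc and M-band genes and 2 thick filament genes, where 13.2% of all genes passed. With the length and GC correction it passed 1 of each list, where 3.19% of all genes passed. The difference between these lists was not tested. Over all genes, which are not independent, the log2 fold change increased with transcript length (Spearman's rho = 0.48), and it did so within the 31 genes of the sarcomere lists (rho = 0.65); all share the same 6 libraries. The coding transcripts of the thin filament genes ran from 721 to 2890 bases, and the 7003 genes in that range had a median log2 fold change of -0.11. Against this trend, *Acta1*, *Lmod2* and *Actc1* lay above the middle 50% of genes in the length bin nearest to theirs, *Tpm1* lay just below it (-0.15 against a lower limit of -0.15), and the other 6 lay within it.

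**Figure D5:**
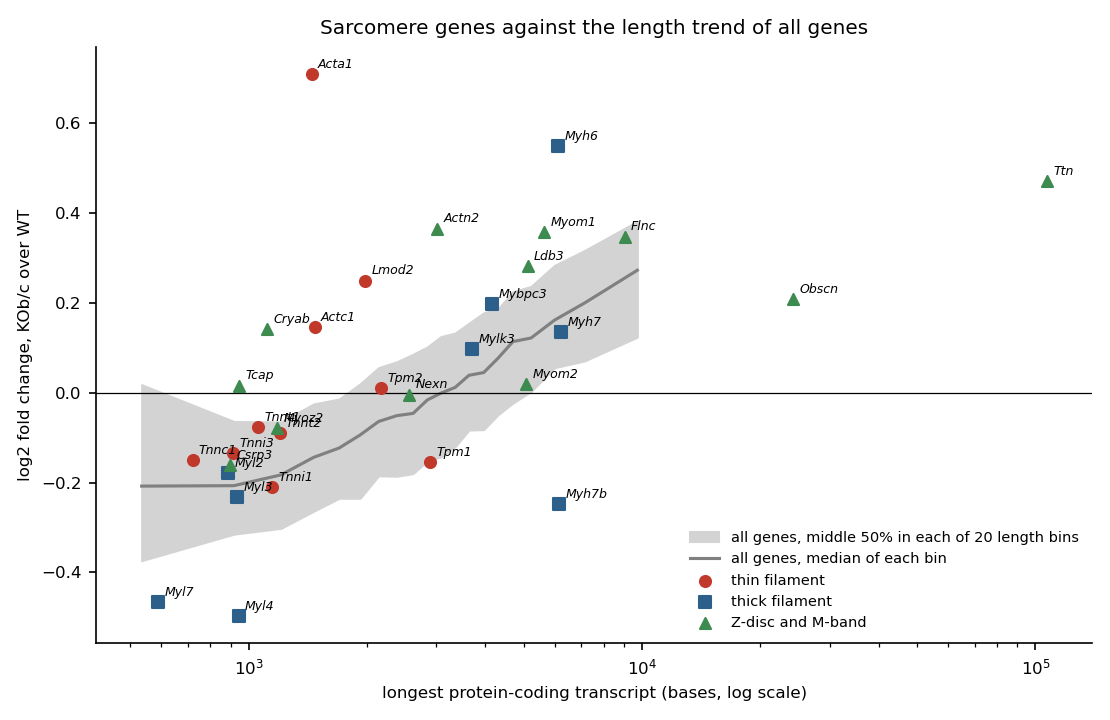
Log2 fold change of KOb/c over WT (y axis) against the length of the longest protein-coding transcript (x axis, bases, log scale) for thin filament (red), thick filament (blue) and Z-disc and M-band genes (green). The grey line and band give the median and middle 50% of all genes in 20 length bins; *Acta1*, *Lmod2* and *Actc1* lie above the band and *Tpm1* lies at its lower edge.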

How the data were processed

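Total RNA of each heart was sequenced in pairs on an Illumina HiSeq instrument. The submitters' processing notes name Trimmomatic 0.36, STAR 2.5.2b, featureCounts of Subread 1.5.2 and DESeq2, with build GRCm38; the annotation and strand setting are not given in the sources used here. The authors deposited a signal per gene, namely reads per gene over the size factor of the library. Whole reads were recovered for 100% of values, within 1e-06 reads, totalling 41364857 to 49100802 per library; size factors ran from 0.962 to 1.128.

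Groups came from the sample labels. Genotypes were compared over 16016 genes with a mean of at least 10 by limma 3.58.1 (R 4.3.3) with a variance trend, on log2(normalized count + 1), a scale that understates changes of low genes, as a two-sided test adjusted by Benjamini-Hochberg at 0.05. edgeR 4.0.16 and DESeq2 1.42.0 were run on recovered reads as alternatives. Ratios were tested by exact permutation. Positions and transcript lengths are from GENCODE M21. A spline correction (5 degrees of freedom each) for coding length and GC content, known for 99.8% of genes, was an alternative. The fits were tested on simulated counts. Named genes were all 10 members, the targeted gene, every other actin, troponin and tropomyosin isoform, and from each further list those with an unadjusted p under 0.05, or the 3 largest in a direction where over 4 passed. *Xirp2*, *Neb*, *Srf*, *Myh8* and the ratios with *Actc1* as numerator were followed across libraries after their values were seen. The capping and assembly genes that stayed higher with the length and GC correction were named as well. The 10 genes and the lists were chosen with earlier results of these data known.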

Additional observations from a re-analysis of the deposited data

How the results depend on the processing

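The 10 genes gave 210 values under 21 alternatives. The only one that passed the adjusted threshold was *Lmod2* with DESeq2 without KOb/c replicate 2 (log2 fold change 0.33). *Tnni1* had no adjusted p in the DESeq2 alternatives, so it could not pass there. *Actc1*, *Acta1* and *Lmod2* stayed positive and *Tpm1* negative in all 21 alternatives. *Tnni3*, *Tnnc1* and *Tnnt1* changed sign in the 4 alternatives with a length and GC correction, *Tnnt2* in 3 of them, *Tpm2* in 6 alternatives and *Tnni1* in 2. The number of genes with an adjusted p under 0.05, 0 by limma, was 1587 by DESeq2, 273 by DESeq2 with the length and GC correction and 1195 by DESeq2 without KOb/c replicate 2; by limma with 1 library left out it ran from 0 to 3. The median log2 fold change of the 10 genes moved from -0.08 to -0.16 after scaling to the same total, which shifts all genes by -0.07, to 0.093 after the length and GC correction, to 0.079 with the longest transcript of any kind in that correction, to 0.10 by DESeq2 with it and to -0.11 by DESeq2 without KOb/c replicate 2, and lay between -0.12 and 0.029 with 1 library left out (0.029 without KOb/c replicate 1).

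The 2 genes higher at an unadjusted p under 0.05 became 1 with the same total, 0 with no variance trend, 1 by DESeq2, 3 with quantile normalization, 3 by DESeq2 with the length and GC correction, and 0 to 2 with 1 library left out. Of all 16016 genes, 2083 were higher with all libraries by limma, and 1259, 1663, 1972, 1917 and 1106 in these settings, in that order. With 1 library left out, 1384 to 2009 of all genes were higher. The genes lower at that level, 0 with all libraries, became 3 with the same total, 2 with quantile normalization, 2 by DESeq2 and 1 by DESeq2 without KOb/c replicate 2. Of all 16016 genes, 1681 were lower with all libraries by limma, and 2539, 1936, 1531 and 1329 in these settings, in that order. The 11 higher capping and assembly genes became 5 after the length and GC correction, 5 with the longest transcript of any kind, and 6 to 11 with 1 library left out. Of all 16016 genes, 1153, 1241 and 1384 to 2009 were higher in these settings, in that order. The log2 difference of the *Tnni1*/*Tnni3* ratio, -0.08, reversed to 0.10 with quantile normalization, and lay between -0.48 and 0.35 with 1 library left out, positive without KOb/c replicate 1 (0.35) and without WT replicate 3 (0.14). The *Acta1*/*Actc1* difference of 0.56 lay between 0.24 and 0.85. The cause of these shifts was not tested, except that fewer samples entered the fits without a library.

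The labels number the mice 1 to 3 in each genotype, and the correlation of deviations between mice of the same number was 0.23, 0.07 and -0.03, so the numbers were not taken to pair them; with the replicate number as a block, limma gave 0 genes. With that block and the length and GC correction, the median of the 10 genes was 0.093. At an unadjusted p under 0.05 by limma, 2 of them and 7 capping and assembly genes were higher, beside 1496 of 16016 genes. With the replicate block, the exact p of the *Acta1*/*Actc1* ratio was 0.5 and that of *Tnni1*/*Tnni3* 1.0.

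With at least 41364857 reads per library, counting error was under 4% for 9 of the 10 genes, and 18.3% for *Tnni1* in its lowest library, below the spread between mice. With 3 mice in each group, all p-values rest on these mice only. The limma p-values and confidence intervals also draw on the variance of other genes, through the variance trend. They therefore do not measure the spread of a gene between these mice alone. Differences under the confidence intervals given could not be seen.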

Other observations

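Some genes that handle actin have a muscle form and a more widely expressed relative, and these were set side by side after their values had been seen. The muscle cyclase-associated protein gene *Cap2* was at 10518, 8708 and 9183 normalized counts in KOb/c and 7384, 8071 and 7419 in WT replicates 1, 2 and 3, all KOb/c libraries above all WT libraries (log2 fold change 0.31, adjusted p = 0.0901 by limma), while *Cap1* was at 3131, 3724 and 3740 in KOb/c and 4143, 3924 and 3969 in WT, all below (-0.19, adjusted p = 0.201 by limma). The pointed-end cap of striated muscle *Tmod1* had 0.22, the non-muscle form *Tmod2* 0.44 and the widespread *Tmod3* -0.13. The muscle cofilin *Cfl2* had -0.02 and the non-muscle *Cfl1* -0.28. Neither the tropomodulins nor the cofilins passed the adjusted threshold by limma, and the differences between the forms were not tested.

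Genes that overlap the thin filament genes were read for the same libraries. *Nisch*, which spans *Tnnc1* on the other strand, had a log2 fold change of 0.18, against -0.15 for *Tnnc1*. *A530058N18Rik*, which spans *Actc1* on the other strand, counted between 694.7 and 857.6 normalized counts in KOb/c and between 740.1 and 917.9 in WT, and had -0.07. *Dnaaf3*, which overlaps 1.3 kb of *Tnni3* on the same strand, had -0.10. *Gm20388*, which overlaps 3.0 kb of *Acta1* on the other strand, was not in the table. Only the ends of genes were compared, not their exons.

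The markers of other cells gave 1 or more genes at an unadjusted p under 0.05 in the cardiomyocyte, skeletal muscle, smooth muscle, fibroblast and endothelial lists and 0 in the atrial and lymphocyte lists, where 13.0% of all genes were higher and 10.5% lower. All 8 atrial markers had a negative log2 fold change (median -0.46), but 6 were positive and 2 negative without KOb/c replicate 1 (median 0.12). With the replicate number as a block, 7 were lower at that level, beside 1741 of 16016 genes. In the cardiomyocyte list, 4 of 8 genes were higher (2 with the length and GC correction, where 7.2% of all genes were): *Ryr2* (log2 fold change 0.61), *Myh6* (0.55), *Atp2a2* (0.48) and *Actn2* (0.37). In that list, 5 log2 fold changes were positive and 3 negative, with 0 genes lower at that level by limma. *Myl2* (-0.18) had all KOb/c libraries below all WT libraries, as 14.6% of all genes did. Of the 12 skeletal muscle markers, *Cacna1s* was higher (0.62) and 0 were lower; without the library labelled KOb/c replicate 2, 1 was higher and 6 were lower (11.9% and 8.92% of all genes). The median log2 fold change of that list was -0.32 by limma, -1.15 by limma without that library, and 0.64 by edgeR and by DESeq2 with all libraries. The smooth muscle list gave *Tagln* (-0.65), and 0 genes without that library or with the length and GC correction. The fibroblast list gave *Pdgfra* (0.49), *Col1a1* (0.31), *Postn* (-0.43) and *Tcf21* (-0.25), and the endothelial list *Cdh5* (0.25), *Tek* (0.22), *Egfl7* (-0.44) and *Fabp4* (-0.30); with the length and GC correction, 1 gene of each list was higher and 1 lower. *Cd3e*, *Ptcra* and *Rag1* of the lymphocyte list were not in the table.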
